A study of Rattus norvegicus with 9 samples.

Results

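The genes described are the receptors for 3 hormones that fat tissue releases, measured in pancreatic islets of rats: Lepr for leptin, Adipor1, Adipor2 and Cdh13 for adiponectin, and Cmklr1 for chemerin. The list was drawn up from knowledge of these hormones, with earlier results of these data known. Each gene was found by its symbol in the annotation of the array. It holds 5 of the 14217 genes measured, with 17 of the 31042 probe sets tested, a probe set being a group of short probes that read one transcript. The obese group was 5 Wistar rats kept for 30 days on a cafeteria diet, a choice of energy-rich foods, and the controls were 4 lean Wistar rats on standard chow. No allele, drug or surgery is named for either group, and sex, age and feeding state are not stated in the labels. Islets were freed by collagenase, and total RNA was put on 1 Affymetrix Rat Genome 230 2.0 array per sample. Each title names a rat, but pooling of animals is not addressed, and the p-values therefore cover only the spread among these 9 samples.

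Leptin acts on a cytokine receptor that signals through the kinase Jak2 and the factor Stat3. Its gene Lepr is spliced into a long form that carries the full signal and into short forms. In rodent beta cells leptin is known to restrain insulin secretion, in part by opening the potassium channel that sulfonylureas close. Adiponectin binds Adipor1 and Adipor2, membrane proteins of the PAQR family, which in mouse tissues have been tied to the kinase AMPK and to the nuclear receptor Ppara. It also binds Cdh13 (T-cadherin), a cadherin held in the membrane by a lipid anchor and found on blood vessels. Chemerin, made from the gene Rarres2, attracts leukocytes through the G protein-coupled receptor Cmklr1, a gene known from macrophages, dendritic cells and natural killer cells.

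The values are log2 expression after RMA, which makes the arrays' distributions equal. The medians of the arrays lay between 5.28 and 5.32, and correlations between arrays lay between 0.979 and 0.994. The islet hormone genes Ins2, Iapp and Ins1 averaged 14.19, 13.96 and 13.43 over the 9 arrays, and Gcg, Ppy and Sst averaged 13.61, 13.02 and 13.00, so the labelled tissue carried its defining transcripts in both groups. RNA quality, taken as the 3-prime minus 5-prime difference of the actin and Gapdh control probe sets, averaged 1.51 ± 0.24 in cafeteria samples and 1.56 ± 0.16 in chow samples (SD, n = 5 and 4, two-sided exact permutation p = 0.746). A larger difference marks less intact RNA. Islet samples hold several cell types, and fewer cells of a type cannot be told apart from less RNA per cell.

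None of the 5 receptor genes differed between the diets beyond the spread of the samples. By limma, 0 of their 17 probe sets passed an adjusted p of 0.05, and their adjusted p-values ran between 0.844 and 0.999. The test passed 0 of all 31042 probe sets too (0.00%). At an unadjusted p under 0.05 stood 0 of the 17 probe sets, where 1789 of all probe sets (5.76%) did. The cafeteria and chow values overlapped in all 17, against 620 probe sets (2.00%) on the whole array whose groups did not overlap. With the brightest probe set standing for its gene, Lepr, Adipor1 and Cmklr1 had the higher mean in cafeteria islets and Adipor2 and Cdh13 the lower mean, and the largest difference was 0.16 log2. The sign of Adipor1 turned when RNA quality was a covariate or when any of 6 single samples was left out.

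**Figure D1:**
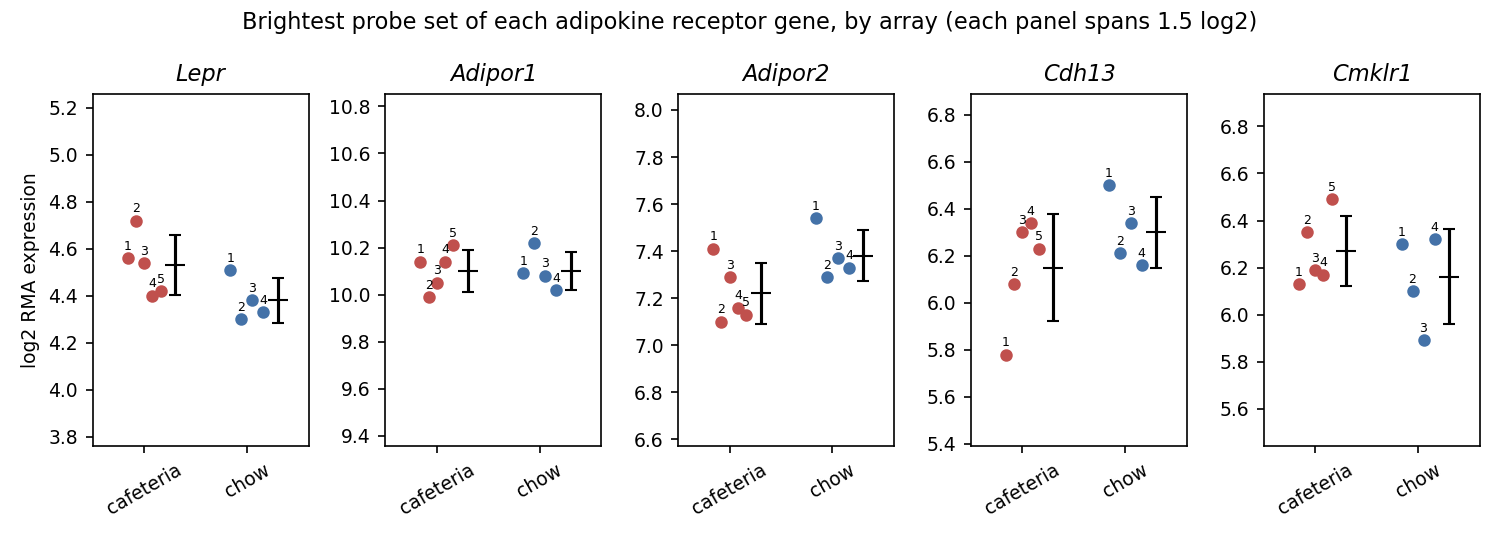
Log2 expression (y axis) of the brightest probe set of each receptor gene, with a point per array numbered by replicate, cafeteria diet left and chow right, and the mean ± SD as a bar beside the points. The groups overlap in all 5 panels, and the cafeteria points of Adipor2 lie mostly below the chow points.

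The leptin receptor gene was dim on every array. Lepr has 7 probe sets, and all 7 lay below the middle of all probe sets, with means between 3.61 and 4.46 over the 9 arrays. Between 6.38% and 29.8% of all probe sets were dimmer than them. RMA gives no detection call, so these values do not say whether the receptor was expressed, and differences at this level are compressed.

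The brightest of them (1388232_a_at) read 4.56, 4.72, 4.54, 4.40 and 4.42 in cafeteria samples 1 to 5, against 4.51, 4.30, 4.38 and 4.33 in chow samples 1 to 4. Of the 5 cafeteria samples 3 lay above every chow sample, and the other 2 lay below chow sample 1. The difference was 0.15 (SE 0.084), a 1.11-fold level with a 95% interval of 0.974-fold to 1.26-fold (limma, unadjusted p = 0.109, adjusted p = 0.844). The other 6 Lepr probe sets differed by -0.0055 to 0.063, and 5 of these 6 were higher in cafeteria samples. With the mean of all 7 probe sets in place of the brightest, the difference was 0.047 (adjusted p = 0.841). The annotation does not say which of the probe sets read the long form.

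The 7 Lepr probe sets varied differently over the arrays. Among their 21 pairs Pearson's r over 9 arrays ran between -0.61 and 0.58 and Spearman's rho between -0.47 and 0.78. By exact permutation 0 of the 21 pairs passed after adjustment over the 30 probe set pairs of the receptors (smallest adjusted p of a Lepr pair = 0.389).

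Adipor1 was bright on every array. Its single probe set (1388373_at) was brighter than 97.7% of all probe sets. It read 10.14, 9.99, 10.05, 10.14 and 10.21 in cafeteria samples, against 10.09, 10.22, 10.08 and 10.02 in chow samples. Both groups averaged 10.10, with an SD of 0.088 in cafeteria and 0.081 in chow samples (n = 5 and 4). The difference was 0.00068 (SE 0.072), and its 95% interval reached from 0.895-fold to 1.12-fold (limma, adjusted p = 0.999). Changes beyond these bounds lie outside the interval.

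The start of Adipor1 is shown as the brightest of the receptor genes here. RefSeq's table gives 1 start per gene, and 4 of the 5 members had an entry. The window covers 250 bases before and 50 after the start, at chr13:48411680-48411979 on the plus strand of GRCr8, with each CG in capitals.
Adipor1: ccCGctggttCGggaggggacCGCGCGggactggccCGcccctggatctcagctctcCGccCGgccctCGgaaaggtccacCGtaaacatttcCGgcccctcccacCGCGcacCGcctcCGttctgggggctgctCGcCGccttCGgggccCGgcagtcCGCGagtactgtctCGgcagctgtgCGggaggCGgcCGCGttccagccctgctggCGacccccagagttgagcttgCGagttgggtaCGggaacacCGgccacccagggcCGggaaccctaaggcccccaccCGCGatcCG
The motif searched was CG, which reads the same on both strands and whose matches cannot overlap. The window holds it 34 times, and 72.7% of its bases are G or C. Of 33469 windows of the same length 6.82% hold CG at least as often, and the median window holds it 7 times. The windows at the listed starts of Cmklr1, Lepr and Adipor2, not shown, hold it 9, 5 and 3 times. Whether the listed starts are those used in islets was not tested. These counts describe the letters and are no measure of activity.

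Adipor2, the second receptor of this pair, was read by 3 probe sets of different brightness, all with a lower mean in cafeteria samples. The brightest (1397519_at) read 7.41, 7.10, 7.29, 7.16 and 7.13 in cafeteria samples, against 7.54, 7.29, 7.37 and 7.33 in chow samples. Of the 5 cafeteria samples 4 lay at or below the lowest chow sample, which sample 3 matched at 7.29, and cafeteria sample 1 lay among the chow samples. The difference was -0.16 (SE 0.086), with a 95% interval of 0.782-fold to 1.02-fold (limma, unadjusted p = 0.0852, adjusted p = 0.844). It had the smallest unadjusted p of all 17 probe sets of the receptors. Without cafeteria sample 1 the difference was -0.21 (unadjusted p = 0.0294, adjusted p = 0.523), and without chow sample 1 it was -0.11 (adjusted p = 0.706).

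The dimmer Adipor2 probe sets varied more from sample to sample. The dimmest (1395146_at) read 5.40, 5.04, 4.79, 4.53 and 4.80 in cafeteria samples, against 4.59, 5.80, 5.93 and 4.88 in chow samples. Chow samples 2 and 3 stood above all others, while chow samples 1 and 4 lay among the cafeteria samples. Its difference was -0.39 (SE 0.28, adjusted p = 0.851). The middle one (1390549_at) read 5.60, 5.52, 5.0, 5.20 and 5.55 in cafeteria samples, against 5.0, 5.62, 5.84 and 5.17 in chow samples, a difference of -0.036 (SE 0.19, adjusted p = 0.984).

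The dimmer sets were alike over the arrays, a relation that did not pass after adjustment (Pearson's r = 0.83, exact permutation p = 0.00567, adjusted p = 0.0850, and Spearman's rho = 0.82, exact p = 0.0108, adjusted p = 0.162, n = 9), and r was 0.83 without the 2 arrays farthest from the median. Neither followed the brightest set (r = -0.21 and 0.17). The brightest set was highest in chow sample 1, where both dimmer sets were among their lowest.

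**Figure D2:**
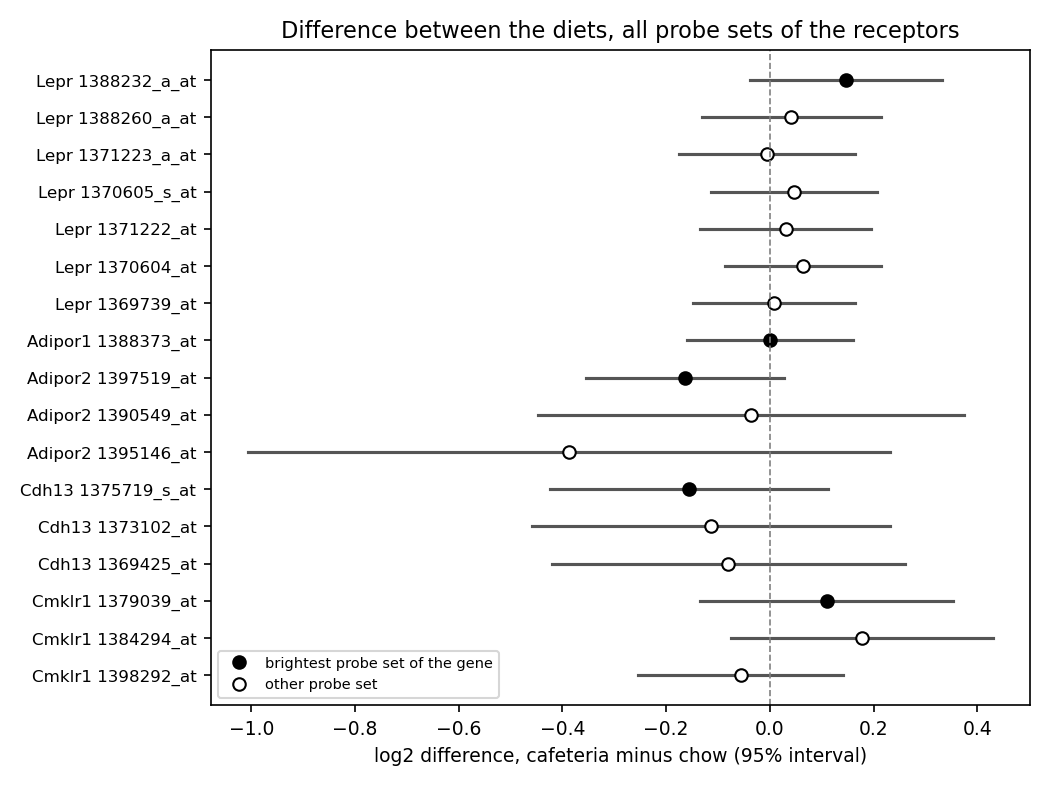
Log2 difference, cafeteria minus chow (x axis), for all 17 probe sets of the 5 receptor genes, with 95% intervals from limma as lines, a filled point for the brightest set of a gene and an open point for the others. Every interval includes 0, and the widest belongs to the dimmest Adipor2 set, from -1.01 to 0.23.

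Cdh13, the third adiponectin binding protein, had 3 probe sets of middling brightness, all with a lower mean in cafeteria samples. The brightest (1375719_s_at) read 5.78, 6.08, 6.30, 6.34 and 6.23 in cafeteria samples, against 6.50, 6.21, 6.34 and 6.16 in chow samples. Cafeteria sample 1 was the lowest and chow sample 1 the highest, and the other samples were mixed. The difference was -0.16 (SE 0.12), with a 95% interval of 0.745-fold to 1.08-fold (limma, unadjusted p = 0.227, adjusted p = 0.859). The other sets differed by -0.11 (SE 0.16, adjusted p = 0.919) and -0.080 (SE 0.15, adjusted p = 0.949).

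The size of the Cdh13 difference depended on single samples, cafeteria sample 1 above all. Cafeteria sample 1 was the lowest array in all 3 sets, at 5.78, 5.05 and 4.53, and without it the brightest set differed by -0.065 (adjusted p = 0.866). Without chow sample 1 the difference was -0.090, and with array weights it was -0.084. The same array had the lowest mean level of the endothelial markers, 7.68 against 7.81 to 7.98 in the other cafeteria samples. It was also lowest for stellate and mesenchymal markers, at 6.87, and for macrophage markers, at 5.22. For Schwann cell markers it read 5.05, as low as chow sample 4, and for beta cell markers it was the highest array, at 12.1. Its 3-prime minus 5-prime difference was the lowest, at 1.21, the side of more intact RNA. Over the 9 arrays Cdh13 had an r of 0.51 with the endothelial markers (exact permutation p = 0.156, adjusted p = 0.605, rho = 0.050), of 0.70 with the stellate and mesenchymal markers (exact p = 0.0649, adjusted p = 0.446, rho = 0.40) and of 0.66 with the 3-prime minus 5-prime difference (exact p = 0.0486, adjusted p = 0.430, rho = 0.47). With the macrophage markers r was 0.70 (exact permutation p = 0.0348, adjusted p = 0.430, rho = 0.47). Without cafeteria sample 1 and chow sample 1, the arrays farthest from the Cdh13 median, these r were -0.54, 0.43, -0.050 and 0.42. With RNA quality as a covariate the diet difference of Cdh13 was -0.12 (limma, adjusted p = 0.688).

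Of all members with several probe sets Cdh13 had the closest agreement among them. Pearson's r between its sets ran between 0.80 and 0.86 over 9 arrays and Spearman's rho between 0.63 and 0.82, with adjusted exact permutation p-values of 0.0850 to 0.133 for r, so 0 of the 3 pairs passed. The 2 arrays farthest from the median of the brighter set of a pair, cafeteria sample 1 among them, were then left out. Without them r was lower in all 3 pairs, at 0.59, 0.45 and 0.0033.

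Cmklr1, the chemerin receptor, had 3 probe sets that disagreed in sign. The brightest (1379039_at) read 6.13, 6.35, 6.19, 6.17 and 6.49 in cafeteria samples, against 6.30, 6.10, 5.89 and 6.32 in chow samples. Cafeteria samples 2 and 5 lay above every chow sample, and chow sample 3 was the lowest. The difference was 0.11 (SE 0.11), with a 95% interval of 0.911-fold to 1.28-fold (limma, unadjusted p = 0.343, adjusted p = 0.884). Without chow sample 3 it was 0.022 and without cafeteria sample 5 it was 0.053.

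The dim sets of Cmklr1 averaged 4.53 and 4.52. The first (1384294_at) read 4.39, 4.52, 4.70, 4.94 and 4.48 in cafeteria samples, against 4.52, 4.26, 4.51 and 4.42 in chow samples, a difference of 0.18 (SE 0.11, adjusted p = 0.846). The second (1398292_at) differed by -0.056 (SE 0.089, adjusted p = 0.933). Pearson's r between the 3 sets ran between -0.67 and -0.0066 over 9 arrays and Spearman's rho between -0.72 and 0.22. No pair had a positive r, and 0 of the 3 passed (smallest adjusted exact permutation p = 0.275).

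**Figure D3:**
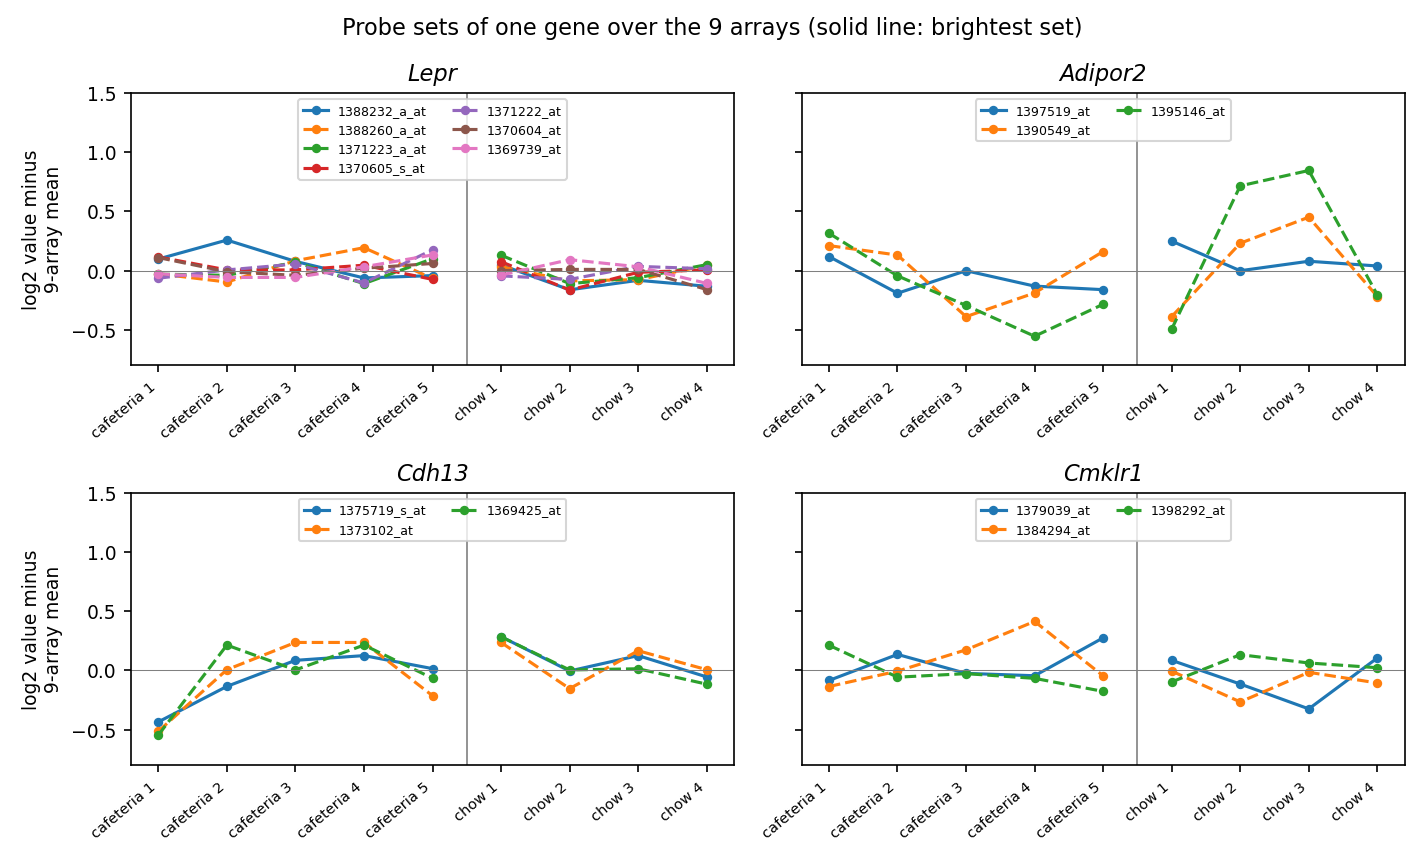
Log2 value minus the set's own mean over 9 arrays (y axis) for each probe set of Lepr, Adipor2, Cdh13 and Cmklr1, by array (x axis, cafeteria left of the line and chow right), with the brightest set as a solid line. All 3 Cdh13 sets are lowest in cafeteria sample 1, the dimmer Adipor2 sets are raised in chow samples 2 and 3, and the Lepr sets stay near 0.

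Macrophages are cells in which Cmklr1 is known. Of all genes 50.8% were higher in cafeteria samples, and 6.70% had an unadjusted p under 0.05 by limma. Of 14 measured macrophage markers 12 were lower in cafeteria samples, with a median difference of -0.17. At an unadjusted p under 0.05 stood 4 of the 14 markers, while 0 passed the test in either direction. Their mean level was 5.22 to 5.61 in cafeteria samples and 5.51 to 5.70 in chow samples, and across the 9 arrays its relation with Cmklr1 did not pass (r = -0.084, exact permutation p = 0.834, adjusted p = 0.976, and rho = 0.017, exact p = 0.982). Of 13 lymphocyte markers 12 were lower, with a mean level of 4.45 to 4.52 in cafeteria and 4.55 to 5.98 in chow samples. These mean levels did not overlap between the diets, though the highest cafeteria level, 4.52, lay close to the lowest chow level, 4.55. Taken singly 3 of the 13 markers did not overlap, against 2.17% of all genes. Most of the list was dim, with 2 of the 13 above the median in brightness. By limma 0 of the markers passed the test, while 3 of the 13 had an unadjusted p under 0.05. The highest of these levels, 5.98, was that of chow sample 3, the array lowest in Cmklr1. Across the 9 arrays the brightest Cmklr1 set had an r of -0.73 with the lymphocyte level, which did not pass after adjustment. Its exact permutation p was 0.0270 (adjusted p = 0.430), and rho was -0.53 (exact permutation p = 0.147, adjusted p = 0.696). Without chow sample 3 and cafeteria sample 5, the arrays farthest from the Cmklr1 median, r was weaker, at -0.26.

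The brightest probe set of each of the 5 receptor genes was set against the mean levels of 10 marker lists and RNA quality. The dimmer sets were not compared with the markers. Those of Adipor2 did not follow its brightest set (r = -0.21 and 0.17), and those of Cmklr1 did not follow theirs (r = -0.0066 and -0.67). Among the 55 relations of the brightest sets 0 passed after adjustment and 5 had an unadjusted exact permutation p under 0.05. The smallest p was that of Adipor2 with the markers of non-beta islet cells (r = 0.81, exact p = 0.00859, adjusted p = 0.430, and rho = 0.87, exact p = 0.00451, adjusted p = 0.248, n = 9). Without the 2 arrays farthest from the median r was 0.83. These markers were lower in cafeteria samples in 10 of 11 members, where 50.8% of all genes were higher. Their mean level was 9.06 to 9.66 in cafeteria and 9.44 to 9.74 in chow samples, and 0 passed the test. By limma 2 of the 11 had an unadjusted p under 0.05, against 6.70% of all genes. The part of these markers in the diet difference of Adipor2 was not tested. The others of the 5 were those of Cdh13 and Cmklr1 given above and that of Lepr with the macrophage markers (r = -0.68, exact permutation p = 0.0453, adjusted p = 0.430, and rho = -0.67, exact p = 0.0589), for which r was -0.38 without the 2 arrays farthest from the Lepr median.

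Levels of the remaining marker lists overlapped between the diets. For acinar markers 13 of 14 had the higher mean in cafeteria samples, where 50.8% of all genes were higher. Half-way through the acinar list the difference stood at 0.52. The acinar level read 7.24, 6.96, 7.33, 7.22 and 5.60 in cafeteria samples, against 6.83, 6.64, 6.07 and 5.91 in chow samples. Cafeteria samples 1 to 4 lay above every chow sample, and cafeteria sample 5 lay below every chow sample. Ductal markers were lower in 5 of 8 and endothelial markers in 10 of 12. Stellate and mesenchymal markers were lower in 6 of 14, beta cell markers in 4 of 7, adipocyte markers in 6 of 11 and Schwann cell markers in 4 of 7. In all of these lists 0 members passed the test, as over the whole array. At an unadjusted p under 0.05 by limma stood 3 of 14 acinar, 1 of 8 ductal and 1 of 12 endothelial markers. So did 1 of 14 stellate and mesenchymal markers and 0 of the beta cell, adipocyte and Schwann cell markers. Over all genes the share was 6.70%.

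The hormones themselves were measured too. Lep, the leptin gene, was dim, with a mean of 3.91 in both cafeteria and chow samples and a difference of -0.0092 (SE 0.066, adjusted p = 0.989). Adipoq, the adiponectin gene, averaged 4.90 in cafeteria and 4.80 in chow samples, a difference of 0.098 (SE 0.090, adjusted p = 0.876) that was 0.051 without chow sample 3 and 0.17 without chow sample 1. Both are made mainly by fat cells, and both lay below the array medians. Rarres2, the chemerin gene, lay above them and read 6.66, 6.85, 7.0, 6.97 and 6.86 in cafeteria samples, against 7.01, 6.73, 6.69 and 6.86 in chow samples. The groups overlapped throughout, and the difference was 0.047 (SE 0.094, adjusted p = 0.951). It was 0.0023 without chow sample 3 and 0.11 without chow sample 1.

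Other proteins that bind or accompany these hormones did not pass the test either. Cmklr2 (once Gpr1), the other signalling receptor for chemerin, differed by -0.037 (SE 0.13), with the opposite sign under array weights. Ccrl2, which binds chemerin without signalling, differed by -0.18 (SE 0.13), and by -0.033 without chow sample 1. Calr (calreticulin), a chaperone that can bind adiponectin at the cell surface, differed by 0.0044 (SE 0.15), and by -0.17 without chow sample 1. Leprot, known in human cells and mice to hold the leptin receptor back from the cell surface, differed by -0.033 (SE 0.093), and a second Leprot set differed the other way. Its relative Leprotl1 differed by 0.024 (SE 0.083). The adjusted p-values of these 5 genes ran between 0.851 and 0.997.

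Genes of leptin signalling were lower in cafeteria samples in 15 of 21 measured members, with a median difference of -0.074, where 50.8% of all genes were higher and their median was 0.0025. By limma 0 of the 21 passed in either direction and 0 had an unadjusted p under 0.05, against 952 of 14217 genes (6.70%). The smallest p-values were those of the kinase gene Akt2 (-0.33, SE 0.16; 1 further set opposite), Abcc8, the sulfonylurea receptor of the beta cell's potassium channel (-0.26, SE 0.13), the adaptor gene Grb2 (-0.23, SE 0.15) and Jak2 (-0.16, SE 0.11). Cafeteria sample 3 was the lowest of the 9 arrays in all 4 genes. Without it Jak2 differed by -0.088 and Grb2 by -0.11. With RNA quality as a covariate the differences were larger, at -0.38 for Akt2, -0.30 for Abcc8, -0.28 for Grb2 and -0.19 for Jak2. Their unadjusted p-values by limma were then 0.0062, 0.0046, 0.013 and 0.052, where 3413 of all probe sets stood under 0.05. The adjusted p-values were 0.346, 0.346, 0.358 and 0.459. The median of the list was -0.017 without chow sample 3.

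Genes of adiponectin signalling pointed both ways, with 12 of 21 higher and a median of 0.019. Without cafeteria sample 3 the median was -0.016. By limma 0 passed the threshold, while 3 of the 21 had an unadjusted p under 0.05, against 6.70% of all genes. Stk11, which encodes the kinase that switches on AMPK, read 5.13, 5.27, 5.13, 5.42 and 5.13 in cafeteria samples, against 4.89, 4.89, 4.93 and 5.01 in chow samples. All 5 cafeteria samples lay above all 4 chow samples, and the groups were as separate in 308 of 14217 genes (2.17%). This Stk11 probe set lay below the middle of all probe sets, with a mean of 5.09 over the 9 arrays and 45.85% of probe sets dimmer. The difference was 0.29 (SE 0.080, adjusted p = 0.844), and 1 further Stk11 probe set differed the other way. With the mean of all its probe sets Stk11 differed by 0.15. Ppargc1a, a coactivator of mitochondrial genes, differed by 0.56 (SE 0.18, adjusted p = 0.844), Erp44, which retains adiponectin in the secretory path, by 0.33 (SE 0.14), and the AMPK subunit gene Prkab1 by -0.15 (SE 0.085). Without cafeteria sample 5 Prkab1 differed by -0.088.

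Genes of chemerin signalling and processing had 12 of 16 members lower, at a median of -0.063, where 50.8% of all genes were higher. By limma 0 of the 16 passed and 0 had an unadjusted p under 0.05, against 6.70% of all genes. The small GTPase gene Rhoa differed by -0.48 (SE 0.26), the G protein gene Gnai2 by -0.34 (SE 0.20), Arrb2, an arrestin that ends receptor signalling, by -0.31 (SE 0.18), and the phospholipase gene Plcb3 by -0.12 (SE 0.068). Without cafeteria sample 3 Gnai2 differed by -0.21, and without chow sample 3 Arrb2 differed by -0.16 and Plcb3 by -0.077. With RNA quality as a covariate Rhoa differed by -0.56, Gnai2 by -0.405, Arrb2 by -0.34 and Plcb3 by -0.12. Their unadjusted p-values by limma were then 0.015, 0.022, 0.066 and 0.13, and the adjusted p-values 0.366, 0.391, 0.480 and 0.571. The median of the list was -0.038 without cafeteria sample 3.

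Relatives of the receptors gave the following values. Of 8 PAQR genes 4 were higher and 4 lower. The smallest p-values were those of Paqr6 (-0.22, SE 0.091) and Paqr7 (-0.20, SE 0.084), membrane receptors known to bind progestins. Next were Paqr5 (-0.046), dim at a mean of 4.10 over the 9 arrays, and Mmd2 (0.13). Of 9 cytokine receptor genes related to Lepr 5 were higher. Ghr, the growth hormone receptor gene, is named for the smallest p of the 9. It read 9.30, 9.12, 9.22, 9.25 and 9.33 in cafeteria samples, against 8.95, 8.83, 8.92 and 8.54 in chow samples. Its groups did not overlap, as in 308 of 14217 genes (2.17%). The difference was 0.43 (SE 0.093, limma, unadjusted p = 0.000742, adjusted p = 0.844). With the mean of both its probe sets Ghr differed by 0.27 (limma, unadjusted p = 0.0744, adjusted p = 0.711). Il11ra1, the interleukin-11 receptor gene, differed by -0.24 (SE 0.10), the shared receptor subunit gene Il6st by 0.10 (SE 0.072; 2 further sets opposite) and the prolactin receptor gene Prlr by 0.12 (SE 0.12). Prlr differed by 0.044 without cafeteria sample 3 and by 0.20 without cafeteria sample 1, and Il6st by 0.065 without chow sample 3.

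Of 11 cadherin genes beside Cdh13 6 were higher and 5 lower. Cdh1 (E-cadherin), which joins epithelial cells, differed by -0.32 (SE 0.17), Cdh10 by 0.15 (SE 0.078), Cdh8 by -0.089 (SE 0.067) and Cdh17 by -0.39 (SE 0.31). The Cdh10, Cdh8 and Cdh17 sets were dim, with means of 3.83, 4.40 and 3.81, so the limits given for Lepr apply to them. The Cdh17 value came from chow sample 1, and without it the difference was 0.028. Cdh1 differed by -0.21 without cafeteria sample 3, and Cdh10 by 0.080 without chow sample 1. In the 3 lists of relatives 0 genes passed by limma, and 4 of the 28 had an unadjusted p under 0.05, against 6.70% of all genes.

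**Figure D4:**
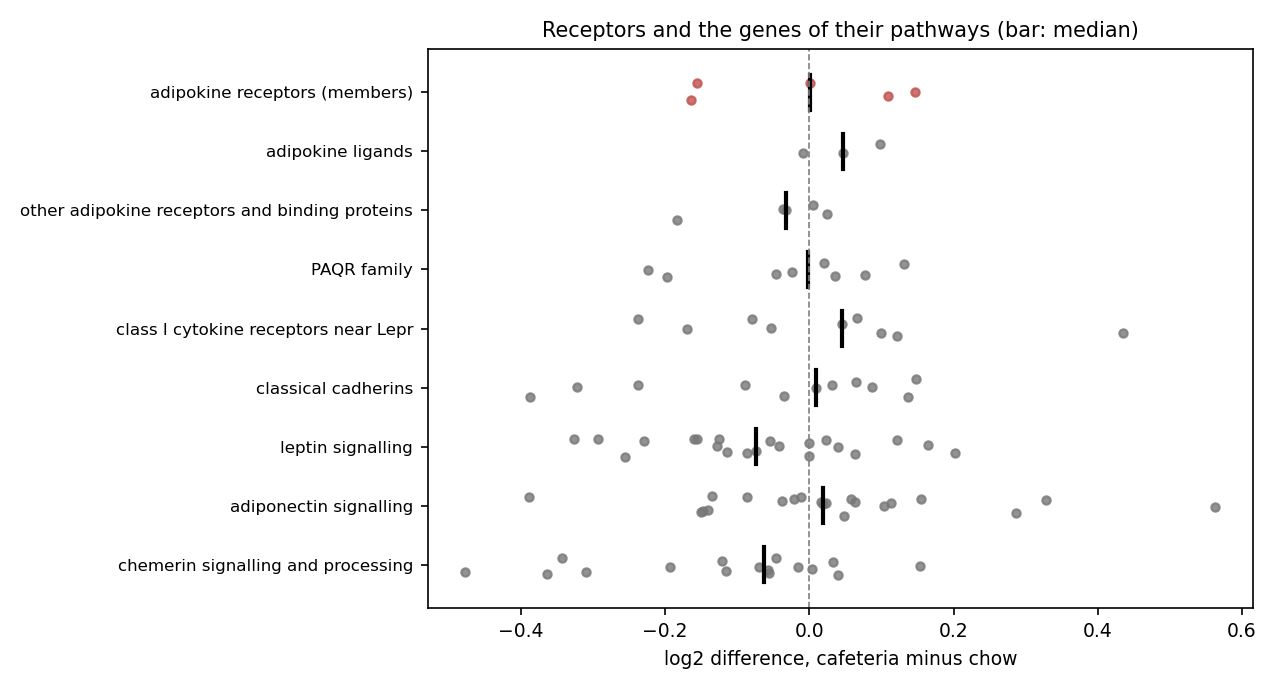
Log2 difference, cafeteria minus chow (x axis), of every measured gene in the lists of receptors (red), hormones, binding proteins, relatives and signalling genes (grey), with a bar at the median of each list. The 5 receptors lie between -0.16 and 0.15, inside the spread of the signalling lists.

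The genes whose values ran most like the brightest set of each receptor over the 9 arrays were taken from 5509 genes. These lay above the median in brightness and in SD. The dimmer sets of the receptors were not used. The genes named were picked for their likeness, so no test is given, and all arrays share the same normalization. For the brightest Lepr set, itself dim, these were Pbx4 (Pearson's r = 0.98), Rrp15 (0.81) and Acad9 (0.80). Without the 2 arrays farthest from the Lepr median r was 0.96, 0.83 and 0.86. For Adipor1 they were Herc3 (0.85), Tgfa (0.84) and Ldaf1 (0.83), and without the 2 arrays farthest from its median r was 0.77, 0.60 and 0.75. Adipor2 was followed by Itpr1 (0.92), Irgm2 (0.91) and Pias3 (0.90), and without the 2 arrays farthest from its median r was 0.88, 0.78 and 0.94. Cdh13 was followed by Lrrfip1 (0.94), Sox17 (0.90) and Zfp36l1 (0.90), and without the 2 arrays farthest from the Cdh13 median r was 0.80, 0.65 and 0.55. Cmklr1 was followed by C1h19orf33 (0.96), Fam110b (0.96) and Vapb (0.96), and without the 2 arrays farthest from its median r was 0.94, 0.87 and 0.88.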

How the data were processed

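The deposited table holds log2 expression values for 31099 probe sets on 9 arrays, 1 per sample. RMA is named in the submitters' processing notes, beside affy 2.0.1 and R 2.7.0, with no role given. RMA removes any shift shared by most genes. The number of arrays limits the precision, with a median standard error of 0.0981 log2 over all probe sets.

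Tests did not use the 57 control probe sets. The platform annotation gave 20826 of the other 31042 a single gene, 436 several and 9780 none, and 20758 were found in RefSeq's table by gene identifier. The probe set with the highest mean stood for its gene. Differences are cafeteria minus chow, by limma 3.58.1 (R 4.3.3, lmFit and eBayes, two-sided), adjusted by Benjamini-Hochberg over all 31042. Exact permutation tests and plots used scipy 1.17.1 and numpy 2.4.6 in Python 3.11.15, with matplotlib 3.10.9 and pandas 2.3.3. Relations over arrays were adjusted within their family.

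The receptors and the other gene lists (19 lists in all, 210 of 240 entries measured) were chosen with earlier results of these data known. Beside the receptors, every hormone and binding protein was named, the 4 genes of smallest p of each signalling or family list, the 3 most like each receptor (mean and SD above the median probe set) and the brightest markers, of which islet genes are printed. Tested on simulated data with 200 changed among 31042 probe sets of this comparison, limma recovered 47 of 67 at 1.5-fold, 60 of 67 at 2-fold and 62 of 66 at 3-fold, with 9 false among 178 calls. The simulated noise was independent between probe sets. No change under 1.5-fold was simulated, so these rates do not cover differences as small as those of the receptors. The alternatives were other scalings, a brightness filter, trended robust variances, array weights, RNA quality as a covariate, mean probe sets, a looser threshold of 0.10 and leaving out each sample.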

Additional observations from a re-analysis of the deposited data

Results flagged for a closer look

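Among 98 groups of values checked for a sample that stands far from the rest of its group, 5 had one, and chance gives about 1 in 20. Chow sample 1 was far above the other chow samples in Cdh17, at 5.27 with the next at 3.69, and in Ccrl2, at 5.03 with the next at 4.47. The same sample was below the others in Leprotl1, at 7.66 with the next at 7.78. In the dim Lepr probe set 1370604_at chow sample 4 was the lowest of its group, at 3.51 with the next at 3.67. In Prkab1 cafeteria sample 5 was the lowest of its group, at 7.57 with the next at 7.84.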

How the results depend on the processing

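For the 37 genes tested and named, no alternative brought an adjusted p under 0.05 (lowest over all alternatives 0.539 for Lepr, 0.950 for Adipor1, 0.523 for Adipor2, 0.688 for Cdh13 and 0.687 for Cmklr1), and the count of probe sets past the threshold was 0 throughout, also at 0.10. The count at an unadjusted p under 0.05, 1789 in all, was 899 among the brighter probe sets alone, where fewer were tested, 3413 with RNA quality as a covariate, and 1235 to 2750 with single samples left out. Lepr, under the brightness limit, has no value there. Leaving out each sample in turn gave 0.099 to 0.19 for Lepr, -0.026 to 0.038 for Adipor1, -0.21 to -0.11 for Adipor2, -0.21 to -0.065 for Cdh13 and 0.022 to 0.17 for Cmklr1. Adipor1 was -0.0010 with RNA quality as a covariate. Signs also turned with single samples left out in Lep (-0.041 to 0.012), Cmklr2 (-0.093 to 0.041), Calr (-0.17 to 0.080), Leprot (-0.085 to 0.025), Leprotl1 (-0.012 to 0.061), Mmd2 (-0.045 to 0.26) and Cdh17 (-0.57 to 0.028). With array weights Cmklr2 was 0.059 and Calr -0.048, and Calr was -0.045 with RNA quality as a covariate. The median of the receptors was -0.078 among the brighter probe sets, where Lepr is missing, and that of the cadherins -0.14. With the mean of all probe sets the median of the cytokine receptors was -0.028, and Akt2 was -0.20, Cdh1 -0.17 and Il6st 0.035. With single samples left out the median of the cytokine receptors was -0.034 to 0.078 and that of the cadherins -0.057 to 0.028. The causes were not tested. No paired analysis was possible because the labels give the samples no shared replicate numbers. Dim probe sets, Lepr among them, limit what can be seen.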
